A study of Mus musculus with 6 samples.

Results

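The clustered protocadherins are cell-surface cadherins encoded by 3 neighbouring gene clusters, Pcdha, Pcdhb and Pcdhg, and they were followed here through 6 RNA-seq libraries of the mouse substantia nigra pars compacta (SNpc), the midbrain region that holds dopaminergic neurons. Members were all genes whose symbol starts with Pcdha, Pcdhb or Pcdhg. In the captured libraries, which were counted per transcript, the rule found 24 genes of 35049 (1 Pcdha, 22 Pcdhb and 1 Pcdhg), with 40 transcripts of 95533. The punched libraries, counted per gene, held 25 such genes of 37991 (2 Pcdha, 22 Pcdhb and 1 Pcdhg).

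Each group was 1 sample, and the samples formed 3 pairs. One pair set mice heterozygous for Engrailed 1 (En1+/-, with 1 working copy of this homeobox gene) against wild type mice, both 6 weeks old. The second pair came from wild type mice 8 weeks old in which Engrailed 2 protein (En2) had been infused on one side of the brain by osmotic pump over 7 days, and set the infused side against the contralateral side. In both of these pairs, SNpc cells that stained for tyrosine hydroxylase, the enzyme that marks dopaminergic neurons, were isolated with a laser. The third pair was taken as 1 mm punches of frozen slices 2 mm thick from wild type mice 8 weeks old that had all received 6-OHDA (6-hydroxydopamine), which enters dopaminergic neurons and kills them. After 30 min the mice of one group received 2 µl of bacterially made En2 (300 ng, 4 µM) with 3 µg of colominic acid, and those of the other a saline vehicle. How many animals each sample pools is not stated in these sources. The infused protein is called En2 after the labels, although the names of the deposited infusion tables say En1.

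In each cluster a row of variable exons, each with its own promoter, encodes the extracellular cadherin repeats, the transmembrane segment and part of the tail. In Pcdha and Pcdhg the chosen variable exon is spliced to constant exons that encode a shared cytoplasmic tail, whereas each Pcdhb gene is in essence 1 coding exon with no constant region. Single neurons switch on a small and largely random subset of these promoters, a choice that depends on DNA methylation and on looping of promoters to distant enhancers by CTCF and cohesin. The proteins bind their like on other membranes, and this recognition lets sister branches of one neuron tell self from other. The C-type members, Pcdhac1, Pcdhac2, Pcdhgc3, Pcdhgc4 and Pcdhgc5, lie at the 3' ends of Pcdha and Pcdhg and are expressed in a less random way.

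On GRCm38 with GENCODE M21 the clusters follow one another on the + strand of chromosome 18, with Pcdha at 36930184 to 37187661, Pcdhb at 37264938 to 37524479 and Pcdhg at 37661793 to 37841873. Of the 22 Pcdhb transcripts counted, 21 are a single exon and Pcdhb22 has 2 exons, with lengths of 2266 to 8695 bases. Stretches of 50 bases that recur in another Pcdhb transcript made up a median of 3.66% of a transcript and at most 12% (Pcdhb12). Reads that lie wholly within such a stretch of 50 bases cannot be assigned to 1 gene by sequence alone. Sequence shared with genes outside Pcdhb was not examined. An annotated transcript of Pcdhb22, not the one counted here, also overlaps Pcdhb21 on the same strand. Gm37446 overlaps Pcdhb12 on the opposite strand.

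The captured libraries held 16145262 to 21332308 counts in all, and 1510189 to 3272409 over the most-read transcript of each gene outside mitochondrial and ribosomal RNA, and the punched libraries held 19044672 after 6-OHDA then En2 and 15927206 after 6-OHDA. En1 had 47 reads in En1+/- and 77 in wild type, a log2 ratio of -1.70 (-2.27 to -1.17). Here and below, a log2 ratio is between counts scaled by the median of ratios over all genes, with 0.5 reads added, and the bracket is an exact 95% counting interval (Clopper-Pearson). With 1 sample per group no difference has a replicate check and none was tested for significance. Because reads are not independent molecules, the intervals cover no more than counting error. Levels in CPM (reads scaled to a common total) are taken over counts outside mitochondrial and ribosomal RNA genes.

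The captured libraries also held RNA of other cells. In every captured library all 12 genes of a dopaminergic list and all 8 of an oligodendrocyte list had reads, and the oligodendrocyte list summed to 18200 to 26500 CPM against 8720 to 11000 CPM for the dopaminergic list. A pan-neuronal list, of which 9 of 10 genes were matched and all 9 had reads, summed to 11700 CPM in En1+/- and 10300 in wild type, to 7060 on the infused side and 8380 on the contralateral side, and to 7380 after 6-OHDA then En2 and 8010 after 6-OHDA. Microglial genes (all 8 with reads in every library) summed to 706 CPM on the infused side and 355 on the contralateral side, and to 122 CPM after 6-OHDA then En2 and 257 after 6-OHDA. Their part in the protocadherin values was not tested. In such bulk samples fewer cells of a type and less RNA per cell cannot be told apart. Of a serotonergic list of 5 genes, 3 had reads in wild type and 2 in each of the other captured libraries. The list summed to 4.28 CPM in En1+/-, 21.9 in wild type, 18.2 on the infused side and 46.1 on the contralateral side. Its genes Tph2 and Slc6a4 were at 0 reads in all 4 captured libraries, while all 5 had reads in both punches.

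Summed over the 22 genes, Pcdhb took similar shares of the reads within each pair, while single members lay far apart in the captured pairs. The sum was 589 reads (180 CPM) in En1+/- and 310 reads (205 CPM) in wild type, a log2 ratio of -0.07 (-0.27 to 0.13). It was 665 reads (288 CPM) on the infused side, against 580 reads (304 CPM) on the contralateral side, a log2 ratio of 0.02 (-0.14 to 0.19). After 6-OHDA then En2 it was 2634 reads (138 CPM) and after 6-OHDA 2279 reads (143 CPM), a log2 ratio of -0.02 (-0.11 to 0.06). All 3 intervals contain 0. Scaling by library totals, which include mitochondrial and ribosomal RNA, adds 0.60 to the log2 ratios of the En1+/- pair and 0.32 to those of the infusion pair. Where a library has few reads it adds less, because of the 0.5 reads added. The Pcdhb sums then become 0.52 (0.32 to 0.73) and 0.34 (0.18 to 0.51), so that neither interval contains 0.

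**Figure D1:**
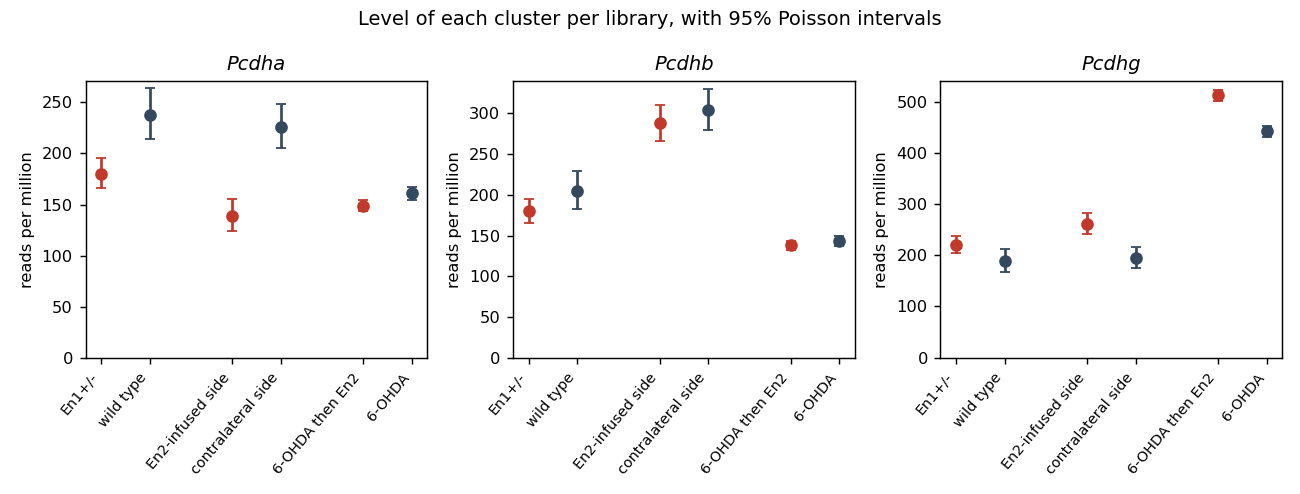
Level in CPM (vertical axis, linear, from 0) of the Pcdha, Pcdhb and Pcdhg clusters in the 6 libraries (horizontal axis), with exact 95% Poisson intervals as bars. Listed genes are summed per cluster. In the captured libraries Pcdha and Pcdhg are each 1 gene, shown by its most-read transcript, that of Pcdhac2 or Pcdhgc3. Pcdhb levels lie close together within each pair, at 180 and 205, 288 and 304, and 138 and 143 CPM. Pcdha lies at 180 in En1+/- and 238 in wild type, an order that library totals turn round. Pcdhg is higher in En1+/-, where this rests on the Pcdhgc3 transcript, on the infused side and after 6-OHDA then En2. Captured libraries were counted per transcript and punched ones per gene, so levels are not compared between them.

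How the reads were spread over the 22 Pcdhb genes differed more. In the captured libraries 3 members had no read in En1+/- and 1 in wild type, and 4 had none on the infused side and 1 on the contralateral side. No member was at 0 in either punched library. The most-read member held 21.6% of the Pcdhb reads in En1+/- (Pcdhb17, 127 reads), against 12.6% in wild type, where Pcdhb7 and Pcdhb17 tied at 39 reads. Pcdhb3 alone held 32.5% with 216 reads on the infused side, and on the contralateral side Pcdhb16 held 13.3% with 77 reads. In the punches Pcdhb17 led both libraries, with 281 reads (10.7%) after 6-OHDA then En2 and 215 reads (9.43%) after 6-OHDA.

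The effective number of Pcdhb genes, the inverse of the summed squared read shares, was 8.41 in En1+/- and 12.5 in wild type. It was 5.63 on the infused side and 12.8 on the contralateral side, and 16.2 and 16.8 in the 6-OHDA then En2 and the 6-OHDA punches. It was thus lowest on the infused side, where the 3 most-read members held 66.2% of the reads, against 37.6% on the contralateral side. Each value describes 1 library, and how far it varies between samples of a group is unknown.

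Across the 22 genes the order of read counts was nearly the same in both punched libraries, with a Spearman correlation of 0.96. Between En1+/- and wild type the correlation was 0.41, and between the infused and the contralateral side 0.30. The contralateral side gave 0.57 with wild type and 0.70 with En1+/-, the highest value between captured libraries. The infused side gave 0.36 with wild type and 0.06 with En1+/-. Set against the 6-OHDA punch, the correlation was 0.63 for En1+/-, 0.75 for wild type, 0.28 for the infused side and 0.76 for the contralateral side. These describe single libraries over the same 22 genes, which share transcript length and, within a pair, the counting method. Read depth differs between them, since punched members had a median of about 100 reads (100.5 and 98.5 in the 6-OHDA then En2 and the 6-OHDA libraries) and captured members medians of 9.5 to 19 reads.

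**Figure D2:**
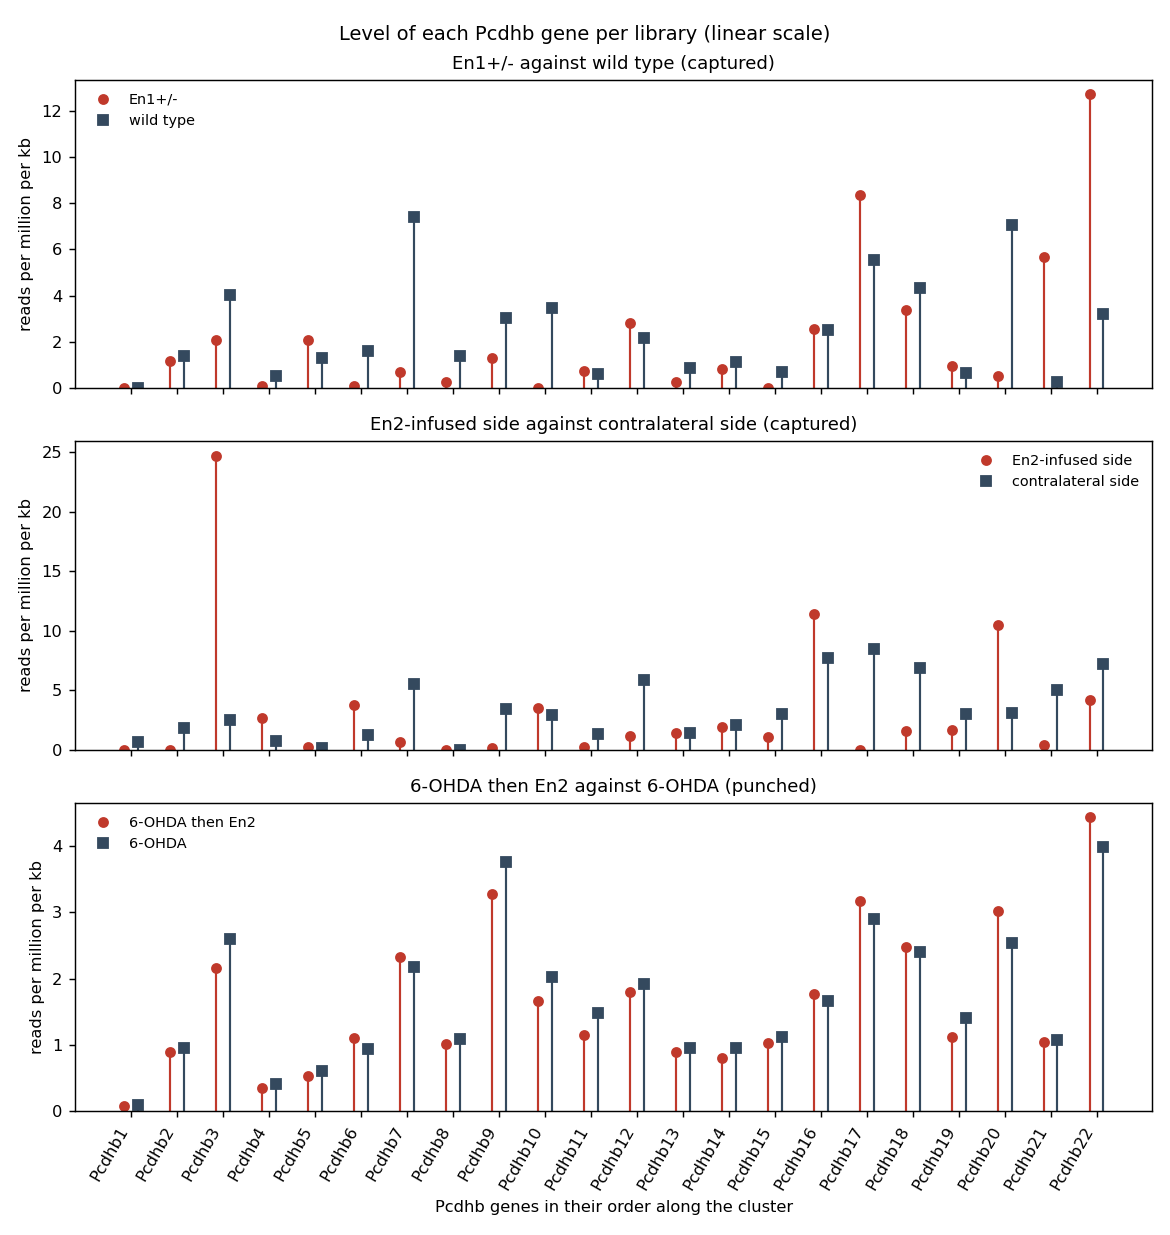
Level of each Pcdhb gene in CPM per kb of transcript (vertical axis, linear, its own range in each panel) along the cluster (horizontal axis, Pcdhb1 to Pcdhb22), with 1 panel per pair and 1 point per library. The punched libraries overlie one another along the cluster, while the captured ones hold isolated high genes such as Pcdhb3 on the infused side (24.7) and Pcdhb22 in En1+/- (12.7).

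Per length, the highest Pcdhb level in the punches was that of Pcdhb22, at 4.43 CPM per kb after 6-OHDA then En2 and 3.99 after 6-OHDA. Pcdhb9 stood at 3.27 and 3.76 CPM per kb and Pcdhb17 at 3.17 and 2.9, in the same order. Pcdhb1, the first gene of the cluster, was lowest with 4 reads in each punch. It was also nearly silent in the captured libraries, with 0 reads in En1+/-, 0 in wild type, 0 on the infused side and 3 on the contralateral side. Among captured libraries the highest level per kb belonged to Pcdhb22 in En1+/- (12.7 CPM per kb), Pcdhb7 in wild type (7.38), Pcdhb3 on the infused side (24.7) and Pcdhb17 on the contralateral side (8.43), a different gene in each of the 4.

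A gene was counted as measured in a pair with at least 20 reads in 1 of its libraries, and as higher or lower where its log2 ratio was at least 1 in size with an interval that excluded 0. In the En1+/- pair 12 Pcdhb genes were measured, 2 higher and 2 lower, or 33.3%, against 34.3% of the 11500 genes measured in that comparison (20.2% higher and 14.2% lower). Among the 8289 genes with 20 to 250 reads in the higher library, a range chosen after the members' reads had been seen, it was 40.6%. The share of Pcdhb genes past the rule was thus near the background. Their median log2 ratio was 0.30 (0.10 over all measured genes), and ratios ran from -3.52 to 4.22. Each of the 4 genes past the rule had under 20 reads in its lower library, and none passed where 20 reads were asked of both.

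Pcdhb21 had 87 reads (26.6 CPM) in En1+/- and 2 reads (1.32 CPM) in wild type, a log2 ratio of 4.22 (2.55 to 7.51). Its neighbour Pcdhb22, at the 3' end of the cluster, had 94 reads in En1+/- and 11 in wild type, 2.06 (1.19 to 3.15). These adjacent genes were both higher in En1+/-. In GENCODE M21 the counted transcript of Pcdhb21 ends at 37518325 and that of Pcdhb22 starts at 37518359, so these 2 transcripts do not overlap. Whether any read counted for both genes was not tested. On the lower side, Pcdhb20 had 6 reads in En1+/- and 38 in wild type, -3.52 (-5.20 to -2.41). Pcdhb7 had 8 reads in En1+/- and 39 in wild type, -3.18 (-4.59 to -2.17). Pcdhb20 lies next to Pcdhb21, so a lower and a higher gene stand side by side in the cluster.

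The most-read Pcdhb genes that did not pass the rule in this pair were Pcdhb17, Pcdhb18 and Pcdhb16. Pcdhb17 had 127 reads in En1+/- and 39 in wild type, a log2 ratio of 0.70 (0.18 to 1.26). Pcdhb18 had 56 and 33 reads in the same order, -0.23 (-0.88 to 0.43), and Pcdhb16 had 44 and 20 reads, 0.14 (-0.66 to 0.98). For Pcdhb3, the gene with most reads on the infused side, the counts were 26 in En1+/- and 23 in wild type, -0.81 (-1.69 to 0.05). Of the 10 Pcdhb genes below the read minimum, Pcdhb10 had 0 reads in En1+/- and 15 in wild type. The others had at most 13 reads in En1+/- and at most 14 in wild type, and Pcdhb1 had none in either.

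On the infused side 15 Pcdhb genes were measured, 4 higher and 6 lower than on the contralateral side. This is 66.7%, against 37.7% of the 11361 genes measured in that comparison (20.7% higher and 17% lower) and 43.5% of the 8869 genes whose higher library held 20 to 250 reads. The median size of the members' log2 ratios, leaving sign aside, was 1.93, against 0.85 over the 8869 genes of that range. Their median was -0.65 (0.08 over all measured genes). Of the 10 genes past the rule 9 had under 20 reads in one library, and only Pcdhb20 passed where 20 reads were asked of both.

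Pcdhb3 had 216 reads (93.6 CPM) on the infused side and 18 reads (9.43 CPM) on the contralateral side, a log2 ratio of 3.38 (2.72 to 4.19) or 10.4-fold. Without Pcdhb3 the summed Pcdhb ratio of the pair was -0.50 (-0.68 to -0.31) instead of 0.02, a setting chosen after the data had been seen. Pcdhb20 had 86 reads on the infused side and 21 on the contralateral side, 1.84 (1.16 to 2.62). Pcdhb6 had 32 and 9 reads in the same order, 1.61 (0.56 to 2.91), and Pcdhb4 had 23 and 5 reads, 1.93 (0.60 to 3.78). Apart from Pcdhb20, the higher genes thus lie in the 5' part of the cluster, but so do Pcdhb7 and Pcdhb9, which were lower by the rule.

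Pcdhb17 had no read on the infused side and 75 reads (39.3 CPM) on the contralateral side, which is at least 28.2-fold lower against a floor of 3 reads. In the other captured pair the same gene had 127 reads in En1+/- and 39 in wild type, so the infused side was the only captured library in which it was not read. Pcdhb21 had 4 reads on the infused side and 45 on the contralateral side, -3.50 (-5.60 to -2.21), and Pcdhb9 had 1 and 20 reads in the same order, -3.91 (-9.87 to -1.85).

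Pcdhb7 had 5 reads on the infused side and 37 on the contralateral side, -2.93 (-4.76 to -1.71). For Pcdhb12 the reads were 8 and 34, -2.19 (-3.58 to -1.12), and for Pcdhb18 they were 18 and 66, -2.02 (-2.89 to -1.28). Each of the 6 lower genes had under 20 reads on the infused side, so each was measured only through its contralateral reads. Among those that did not pass the rule, Pcdhb16 had the most reads, 138 on the infused side and 77 on the contralateral side, 0.67 (0.26 to 1.09), followed by Pcdhb14 with 39 and 34 reads, 0.03 (-0.68 to 0.73). Of the 7 genes below the minimum none exceeded 12 reads on the infused side or 16 on the contralateral side.

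The captured pairs share no library, and 11 Pcdhb genes were measured in both. Of the 3 that passed the rule in both, Pcdhb7 was lower in En1+/- and on the infused side, while Pcdhb20 and Pcdhb21 had opposite directions in the 2 pairs. Over all genes, 10077 were measured in both pairs and 1324 (13.1%) passed the rule in both, 649 of them (49%) in opposite directions, so opposite directions are common in these libraries. Pcdhb20 was lower in En1+/- and higher on the infused side. Pcdhb21 was higher in En1+/- and lower on the infused side. Whether the ratios differ between the pairs beyond the spread between samples was not tested, because each group is 1 sample.

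**Figure D3:**
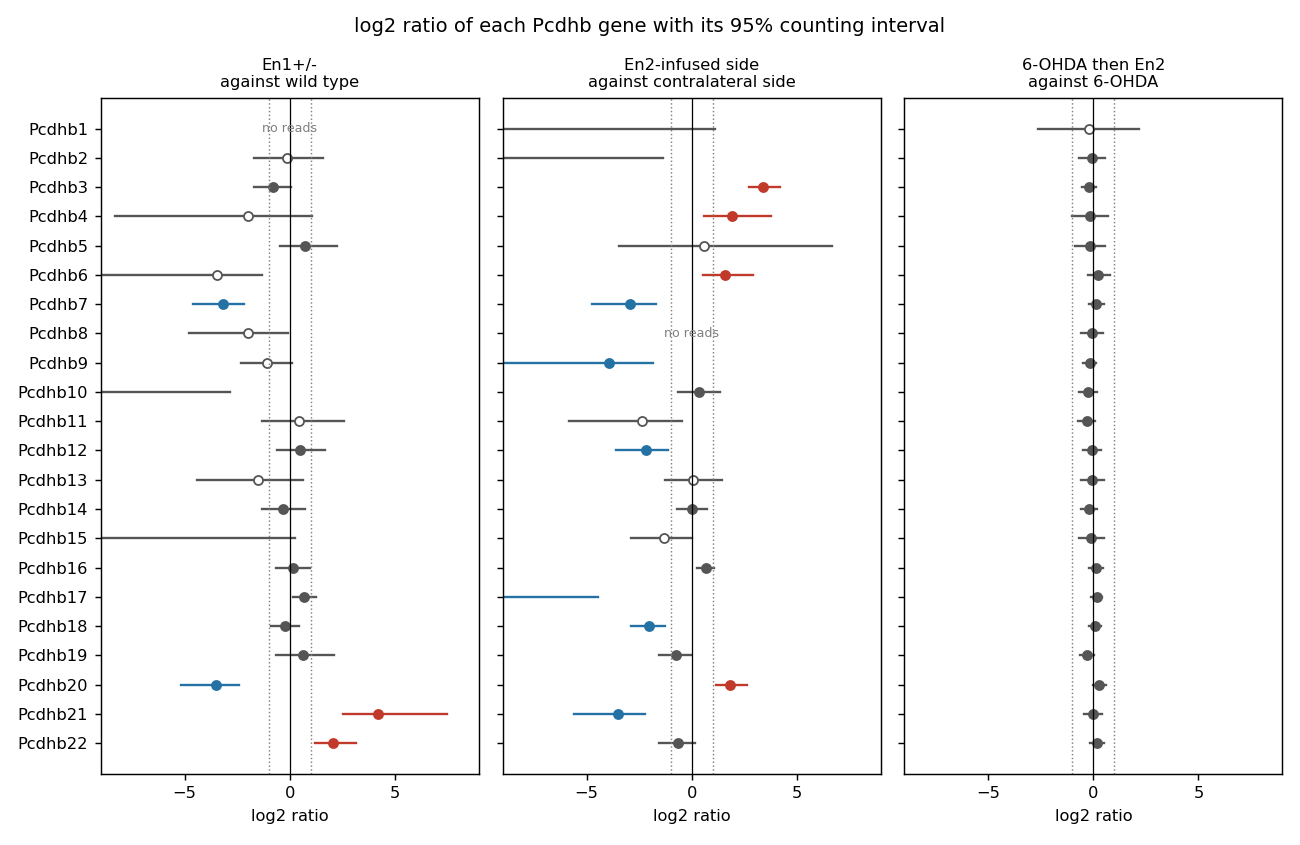
log2 ratio of each of the 22 Pcdhb genes (vertical axis, in cluster order) in the 3 pairs, with its exact 95% counting interval as a horizontal line, which is cut at -9 and 9. Filled points were measured and open points were below the read minimum, red marks higher and blue lower genes by the rule, dotted lines mark log2 ratios of -1 and 1, and a line without a point marks a gene with 0 reads in 1 library; ratios spread from -3.52 to 4.22 in the En1+/- pair and from -0.33 to 0.28 in the punched pair.

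A further comparison of captured libraries, the contralateral side at 8 weeks against untreated wild type at 6 weeks, holds no En1 genotype difference. By the same rule 5 Pcdhb genes of 12 measured were higher and 1 was lower, against 27.5% of all 10742 genes measured (14.1% higher and 13.4% lower) and 31.6% of those with 20 to 250 reads in the higher library. Pcdhb21 had 45 reads on the contralateral side and 2 in wild type, a log2 ratio of 3.92 (2.26 to 7.28). Pcdhb19 had 41 and 7 reads in the same order, 2.18 (1.08 to 3.65), and Pcdhb16 had 77 and 20 reads, 1.62 (0.92 to 2.43). Pcdhb12 (34 and 10 reads, 1.43) and Pcdhb22 (31 and 11 reads, 1.16) were the other higher genes. Pcdhb20 was the lower one, with 21 reads on the contralateral side and 38 in wild type, -1.13 (-2.00 to -0.35). The summed Pcdhb reads differed as well, with 580 and 310 reads in that order, a log2 ratio of 0.60 (0.40 to 0.81). Age, pump and library cannot be told apart here, and this comparison shares its libraries with both captured pairs.

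Pcdhb21 thus had 87 reads in En1+/-, 2 in wild type, 4 on the infused side and 45 on the contralateral side. Its high libraries were En1+/- and the contralateral side, and its 2 reads in wild type enter both of its large positive ratios. Pcdhb20 had 6, 38, 86 and 21 reads in the same order and was lowest in En1+/-. For Pcdhb7 the counts were 8, 39, 5 and 37 reads, with both low values in En1+/- and on the infused side.

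In the punched pair 21 of the 22 Pcdhb genes were measured, and none was higher or lower by the rule, against 5.89% of the 15747 genes measured in that comparison (4.66% higher and 1.23% lower) and 9.75% of those with 20 to 250 reads in the higher library. Nor did the interval of any measured Pcdhb gene exclude 0, against 35.8% of all measured genes, many of them with more reads, and 25.6% of those with 20 to 250 reads in the higher library. Log2 ratios ran from -0.33 to 0.28 with a median of -0.07 (0.01 over all measured genes). Pcdhb17 had 281 reads after 6-OHDA then En2 and 215 after 6-OHDA, a log2 ratio of 0.15 (-0.11 to 0.42). Pcdhb20 had 205 and 144 reads in the same order, 0.28 (-0.04 to 0.59), and Pcdhb11 had 97 and 104 reads, -0.33 (-0.75 to 0.08). The other best-read members were Pcdhb18 (237 and 193 reads, 0.06), Pcdhb9 (190 and 183 reads, -0.18), Pcdhb22 (191 and 144 reads, 0.17) and Pcdhb16 (176 and 138 reads, 0.12).

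The genes that stood apart in captured pairs lay close together here. Pcdhb3 had 156 reads in each punched library, a log2 ratio of -0.23 (-0.56 to 0.10), and Pcdhb21 had 93 reads after 6-OHDA then En2 and 80 after 6-OHDA, -0.02 (-0.46 to 0.43). Pcdhb7 had 155 and 121 reads in the same order, 0.12 (-0.23 to 0.48). The 11 Pcdhb genes past the rule in at least 1 of the En1+/- and infusion pairs had punched log2 ratios of -0.23 to 0.28. The punches hold all cells of the tissue and gave several times more Pcdhb reads than any captured library, so their intervals are narrower.

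The authors' deposited tables, made with DESeq without replicates, put no member below an adjusted p of 0.05 in any pair. Of all rows, 48 of 64068 were below it in the infusion table, 61 of 62202 in the En1+/- table and 504 of 37991 in the punched table. The lack of members below it is therefore not read as a result about them. Unadjusted, 2 of 39 member transcripts were under 0.05 in the infusion table, 1 of 39 in the En1+/- table and 0 of 25 member genes in the punched table. The unadjusted share over all rows was not computed. In the authors' deposited table of the infusion, Pcdhb17 had p = 0.00143 (adjusted p = 0.439) and Pcdhb3 p = 0.00405 (adjusted p = 0.727), with a log2 fold change of 3.44 for Pcdhb3. In the authors' deposited table of the En1+/- pair, Pcdhb21 had a log2 fold change of 4.44, p = 0.0349 and an adjusted p of 1.

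The Pcdha gene, listed as Pcdha1 (ENSMUSG00000007440), holds transcripts of many variable exons that end in the same constant exons. In GENCODE M21 the 8 Pcdha transcripts matched share 2860 bases, 48.6% to 54.5% of each. By its most-read transcript, that of Pcdhac2, the gene had 589 reads (180 CPM) in En1+/- and 359 reads (238 CPM) in wild type, a log2 ratio of -0.29 (-0.48 to -0.09), which is 0.31 when scaled by library totals. The infusion pair held 322 reads (139 CPM) on the infused side and 432 reads (226 CPM) on the contralateral side, -0.60 (-0.81 to -0.38). In the punches Pcdha1 had 2800 reads after 6-OHDA then En2 and 2535 after 6-OHDA, -0.09 (-0.17 to -0.01). Pcdha3, listed apart in the punches, had 45 and 34 reads in the same order, 0.17 (-0.50 to 0.86). None of these passed the rule of size.

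Within Pcdha 3 of 9 transcripts had far more captured reads than the others. Those of Pcdha12, Pcdhac1 and Pcdhac2 had 218 to 589 reads per library, many of which may be the same reads, while the other 6 had 4 to 42. This division was made after the counts had been seen. Since a read in a shared exon can count for every transcript that holds it, the reads of a transcript above the lowest of its set are, if all of the set hold the shared part, a lower bound on its reads outside that part. Such remainders are given as reads, without a fold. Scaling, not applied to them, divides reads by 1.414 in En1+/- and 0.7071 in wild type, and by 1.062 on the infused side and 0.942 on the contralateral side. The same number of reads thus stands for a lower level in En1+/- than in wild type. Which exons the authors' transcript models held is not stated in these sources. Had all 9 held the constant exons, each would count the shared reads, which the 4 to 42 reads of 6 transcripts do not show. Pcdhac2, needed in mice for the even spread of serotonergic axons, exceeded the lowest of the 3 transcripts by 94 unscaled reads in En1+/- and 101 in wild type. On the infused side the excess was 104 reads and on the contralateral side 87. Pcdhac1 exceeded the lowest by 7 reads in En1+/- and 0 in wild type, and by 10 on the infused side and 42 on the contralateral side. Pcdha12 was at or within 2 reads of the lowest in all 4.

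Among the 6 transcripts with few reads, that of Pcdha1 itself had the widest range, 5 to 42 reads. It had 42 reads in En1+/- and 14 in wild type, a log2 ratio of 0.57 (-0.32 to 1.57), and 5 reads on the infused side against 36 on the contralateral side, -2.89 (-4.73 to -1.67). Pcdha2 had 4 reads in En1+/- and 14 in wild type, -2.61 (-4.87 to -1.14), and 18 reads on the infused side and 12 on the contralateral side, 0.40 (-0.72 to 1.60). In the En1+/- pair Pcdha2 and 3 others of the 6 had ratios of -2.33 to -2.61 with intervals below 0, on 4 to 6 reads in En1+/- and 14 to 17 in wild type. All 4 lay at or within 3 reads of the lowest of the 6 in both libraries of that pair. They may thus count the same reads and are not 4 separate results. Pcdha2 had 0 reads above the lowest in En1+/- and 0 in wild type. The name Pcdha11 stands for 2 of these transcripts in GENCODE M21, and 1 belongs there to Gm42416, so they are not told apart by name here.

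The Pcdhg gene, listed as Pcdhga11 (ENSMUSG00000023036), shares 2116 bases among its 9 transcripts, 41.7% to 45.2% of each. By its most-read transcript, that of Pcdhgc3, it had 719 reads (220 CPM) in En1+/- and 286 reads (189 CPM) in wild type, a log2 ratio of 0.33 (0.13 to 0.53). It had 602 reads (261 CPM) on the infused side, against 373 reads (195 CPM) on the contralateral side, 0.52 (0.33 to 0.71). In the punches it had 9756 reads (512 CPM) after 6-OHDA then En2 and 7047 reads (442 CPM) after 6-OHDA, 0.24 (0.19 to 0.28) or 1.18-fold. All 3 intervals lie above 0, and none of the ratios reaches the rule of size.

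The 9 captured Pcdhg transcripts had 442 to 719 reads in En1+/-, 208 to 286 in wild type, 550 to 602 on the infused side and 294 to 373 on the contralateral side. The reads above the lowest transcript made up 38.5% of the highest one's reads in En1+/-, 27.3% in wild type, 8.64% on the infused side and 21.2% on the contralateral side. Every transcript had a positive ratio in the infusion pair, from 0.52 (Pcdhgc3) to 0.77 (Pcdhga9, Pcdhgb6 and Pcdhga12). In the En1+/- pair 8 of the 9 had ratios of -0.15 to 0.19 and only Pcdhgc3 had an interval above 0, whereas by library totals, which add 0.60, all 9 ratios were positive. Summed over all 9 transcripts the En1+/- ratio was 0.08, so the gene's 0.33 rests on Pcdhgc3. A read in a shared exon can enter that sum several times, so no counting interval is given for it.

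Pcdhgc3, which binds Axin1 and promotes dendrite branching of cortical neurons in mice, exceeded the lowest Pcdhg transcript by 277 unscaled reads in En1+/- and 78 in wild type, and by 52 on the infused side and 79 on the contralateral side. Pcdhgc4, on which the survival of inhibitory interneurons in mice depends, had an excess of 60 reads in En1+/- and 70 in wild type, and of 15 reads on the infused side and 19 on the contralateral side. Pcdhgc5 had 41 and 32 reads above the lowest in En1+/- and wild type, and 0 and 4 on the infused and the contralateral side. These reads are unscaled, so 41 in En1+/- does not stand for a higher level than 32 in wild type.

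Of the remaining Pcdhg transcripts, Pcdhgb6 exceeded the lowest by 34 reads in En1+/- and 0 in wild type, and by 43 on the infused side and 15 on the contralateral side. Pcdhga12 did so by 15 and 7 reads in the first pair and by 52 and 19 in the second. Pcdhga11 showed 13 reads above the lowest in En1+/- and 43 in wild type, and 18 on the infused side and 24 on the contralateral side. For Pcdhga3 the remainders were 36 and 5 reads in En1+/- and wild type and 10 and 15 on the infused and the contralateral side, and for Pcdhga8 they were 21 and 13, and 1 and 30. The lowest transcript differs between libraries, so differences of a few reads in these values carry no order.

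**Figure D4:**
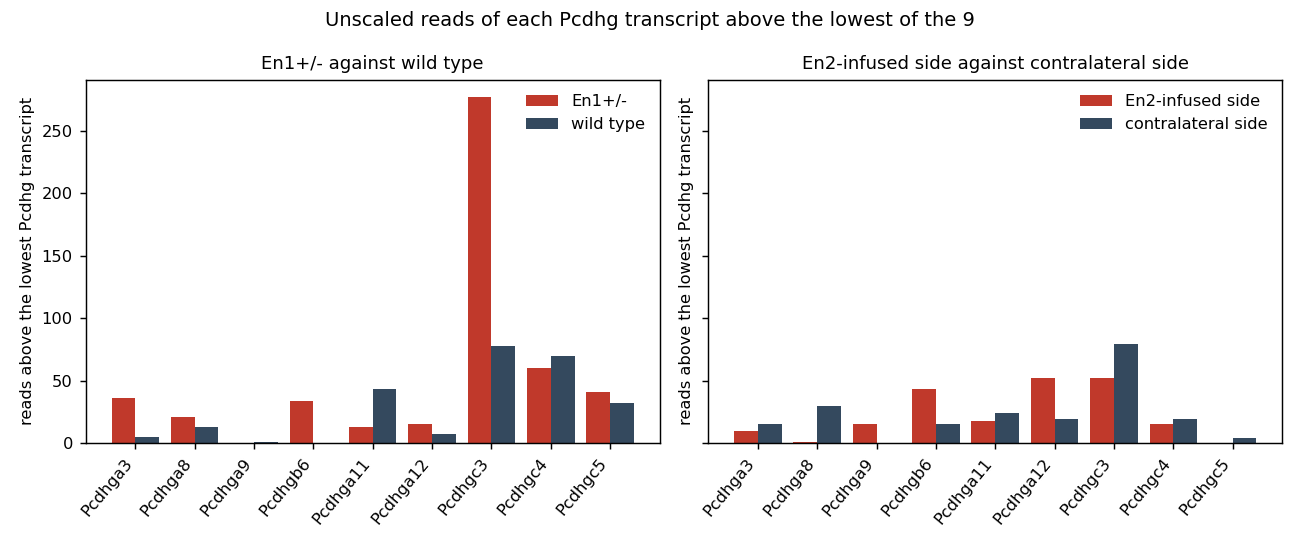
Reads of each of the 9 Pcdhg transcripts above the lowest of the 9 in the same library (vertical axis, unscaled reads, from 0) for the captured pairs, with transcripts in cluster order on the horizontal axis. Pcdhgc3 stands out in En1+/- with 277 reads, against 78 in wild type, while on the infused side it has 52 and on the contralateral side 79. Scaling, not applied here, would divide reads by 1.414 in En1+/- and by 0.7071 in wild type.

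Regulators of promoter choice at these clusters were taken as a list of 22 genes, 20 of them found. In the En1+/- pair 19 were measured, 2 higher and 3 lower, with a median log2 ratio of -0.06 (0.10 over all genes). Pds5a, which helps to control cohesin on chromatin, had 361 reads in En1+/- and 53 in wild type, 1.76 (1.35 to 2.21), and Wiz, a zinc finger partner of CTCF and cohesin, had 132 and 22 reads, 1.57 (0.93 to 2.31). The lower genes were Rest, a repressor of neuronal genes (28 and 66 reads, -2.21), Esco1, which acetylates cohesin (50 and 51 reads, -1.02), and Zfp143, which binds at promoters that contact CTCF sites (0 and 21 reads), all in the order En1+/- and wild type. Ctcf itself had 97 reads in En1+/- and 75 in wild type, -0.63 (-1.08 to -0.17).

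In the infusion pair 19 regulators were measured, 3 higher and 4 lower, with a median of 0.16 (0.08 over all genes). Smchd1, a repressor of clustered protocadherin genes in mice, had 48 reads on the infused side and 114 on the contralateral side, -1.41 (-1.94 to -0.92). The cohesin subunit gene Smc3 had 160 and 301 reads in the same order, -1.08 (-1.37 to -0.80), and the cohesin loader gene Mau2 had 74 and 176 reads, -1.42 (-1.83 to -1.02). Wiz was the fourth lower gene, with 30 and 54 reads, -1.01 (-1.72 to -0.35).

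Among the higher regulators, Dnmt3a, a DNA methyltransferase gene, had 494 reads on the infused side and 117 on the contralateral side, 1.90 (1.61 to 2.21). Esco1 had 436 and 93 reads, 2.05 (1.73 to 2.40), and Zfp143 had 99 and 16 reads, 2.42 (1.69 to 3.32). Ctcf had 107 reads on the infused side and 103 on the contralateral side, -0.12 (-0.52 to 0.29). The cohesin subunit gene Rad21 had 493 and 263 reads, 0.73 (0.52 to 0.96), a ratio opposite in sign to that of Smc3. In the punched pair 20 regulators were measured and none passed the rule, beside 5.89% of all measured genes. Smc3 had 523 reads after 6-OHDA then En2 and 548 after 6-OHDA, -0.30 (-0.48 to -0.13), and Ctcf 1061 and 922 reads, -0.03 (-0.16 to 0.10).

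Protocadherins outside the clusters (12 genes) were set beside the members. In the En1+/- pair 10 were measured. Pcdh18 was higher, with 234 reads in En1+/- and 50 in wild type, 1.22 (0.78 to 1.70), while Pcdh8 (28 and 78 reads, -2.45) and Pcdh1 (181 and 210 reads, -1.21) were lower. In the infusion pair 1 of 11 passed the rule, Pcdh20 with 76 reads on the infused side and 33 on the contralateral side, 1.02 (0.42 to 1.67), and in the punched pair 0 of 11 did. Their medians were -0.07, -0.21 and 0.10 in the En1+/-, infusion and punched pairs. Pcdh10, one of the most-read of them, had 2004 reads in En1+/- and 734 in wild type, 0.45 (0.33 to 0.57), and 691 reads on the infused side and 778 on the contralateral side, -0.34 (-0.49 to -0.19).

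Of 19 classical cadherins and catenins, 17 were measured in the En1+/- pair, with Cdh9 (160 reads in En1+/- and 19 in wild type, 2.05) and Cdh7 (109 and 24 reads, 1.17) higher and Cdh12 (27 and 49 reads, -1.83) lower. In the infusion pair Cdh12 was lower as well, with 5 reads on the infused side and 31 on the contralateral side, -2.68 (-4.52 to -1.43), and it was the only one of 17 past the rule. The medians were 0.21 and 0.14. In the punched pair 0 of 19 passed, with a median of 0.03. Ctnnb1, the beta-catenin gene, had 1697 reads in En1+/- and 467 in wild type, 0.86 (0.71 to 1.01), below the rule of size.

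Among 20 genes whose products act with clustered protocadherins inside or at the surface of the cell, 20 were measured in the En1+/- pair and 3 were lower, with a median of -0.11. The largest difference was that of Ptk2b, which encodes the kinase PYK2 that binds the protocadherin tails, with 9 reads in En1+/- and 42 in wild type, -3.13 (-4.45 to -2.16). Nlgn2, a postsynaptic adhesion gene, had 112 and 171 reads, -1.60 (-1.97 to -1.26), and Adam10, which encodes a protease that cleaves protocadherins, had 133 and 158 reads, -1.24 (-1.59 to -0.91). On the infused side Psen2, a presenilin gene of the gamma-secretase complex, was higher with 78 reads and 10 on the contralateral side, 2.73 (1.84 to 3.91), and Nlgn1 was lower with 130 and 241 reads, -1.06 (-1.38 to -0.75). These were 2 of 19 measured, with a median of 0.37 (0.08 over all genes). In the punched pair 0 of 20 passed.

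Past the rule in the En1+/- pair were 5 of 19 regulators, 3 of 10 non-clustered protocadherins, 3 of 17 cadherins and catenins and 3 of 20 partners, beside 34.3% of all measured genes. In the infusion pair 7 of 19, 1 of 11, 1 of 17 and 2 of 19 passed in the same order of lists, beside 37.7% of all measured genes. In the punched pair no gene of these lists passed, beside only 5.89% of all measured genes. No list was tested against the others. Scaling by library totals, applied to the lists after the data had been seen, ended the lower calls of Esco1 (-0.43), Pcdh1 (-0.61) and Adam10 (-0.65) in the En1+/- pair and of Smc3 (-0.76), Wiz (-0.69) and Nlgn1 (-0.74) in the infusion pair. Under it the counts past the rule in the En1+/- pair were 6 higher and 2 lower of the regulators, 4 and 1 of the non-clustered protocadherins, 6 and 1 of the cadherins and catenins and 2 and 2 of the partners. In the infusion pair they were 5 and 2, 1 and 0, 3 and 1, and 5 and 0 in the same order, and in the punched pair all were 0. The share of all genes past the rule under this scaling was not computed. Under it the median log2 ratio over all measured genes was 0.70 in the En1+/- pair and 0.39 in the infusion pair. These counts are therefore not read as a result about the lists.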

How the data were processed

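The members, gene lists and rules were chosen with earlier results of these data known. Per the submitters' processing notes the tools were Bowtie, HTSeq and DESeq 1.8.3 on mm10 (one deposited header names mm9). The authors deposited raw counts per transcript for the captured libraries, where 1 read may add to several overlapping transcripts, and raw counts per gene for the punched ones. Comparison tables that the authors deposited hold p-values made without replicates, beside log2 values for captured pairs and a linear ratio for the punches. The 6 per-sample columns in those tables were not used. The files hold no coordinates, so positions and lengths came from GENCODE M21.

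Captured genes were represented by their most-read transcript. Left out were 9402 transcripts without a gene identifier (2.93% to 4.78% of counts). Of punched alignments, 39.6% after 6-OHDA then En2 and 42.6% after 6-OHDA were not aligned, 16.9% and 16.4% lay in no feature and 0.334% and 0.307% were ambiguous. In the punched files 4 counts shifted by 1 column were moved back. Pairs were scaled by the median of ratios, and members were read against the same rule over all genes. The steps were tested on simulated data. Alternatives were library totals, TMM (edgeR 4.0.16, R 4.3.3), no minimum count, a minimum of 100 reads, 2 reads added, summed transcripts and reads above the lowest transcript. Python 3.11.15, numpy 2.4.6, pandas 2.3.3 and scipy 1.17.1 were used.

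Named members are the 6 most-read Pcdhb genes of a pair, all past the rule, the C-type genes and the 3 other most-read Pcdha and Pcdhg transcripts, of which those of Pcdha11 are not given apart. From each list the genes past the rule and the 2 most-read were taken, of which not all are given. Others, among them Pcdhb1, Pcdhb10, Pcdhb11 in the punches and Ctcf, were chosen after their values were seen.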

Additional observations from a re-analysis of the deposited data

How the results depend on the processing

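No paired analysis was possible because each group holds 1 sample, and for the same reason no replicate could be left out. Of 80 recomputed sums, counts and cluster ratios, 60 kept their value within the main interval or within 1.5 times the main count, and 20 did not. Of 98 ratios of single Pcdhb genes, 97 stayed within the main interval. The exception was Pcdhb17 in the En1+/- pair, at 1.29 by library totals. Many of the 98 could hardly move. In 20 of them transcripts were summed, which leaves the reads of a Pcdhb gene unchanged, as the 22 genes had 22 transcripts. In 26 the scaling was TMM, which shifts log2 ratios by -0.02 to 0.00. Scaling by library totals shifts log2 ratios by 0.60 in the En1+/- pair and 0.32 in the infusion pair, and by less at few reads. Pcdha then became 0.31 and -0.28, Pcdhg 0.93 and 0.84 and the Pcdhb sum 0.52 and 0.34 in these pairs. In the En1+/- pair 4 Pcdhb genes were then higher, where the median over all measured genes was 0.70. With no minimum count 5 Pcdhb genes were lower in En1+/-. A minimum of 100 reads left 0 higher and 0 lower Pcdhb genes in the En1+/- pair and 1 higher and 0 lower in the infusion pair, and so did at least 20 reads in both libraries, which was added after seeing the data. For Pcdhg in the En1+/- pair, summing all transcripts gave 0.08 and reads above the lowest transcript gave 0.83. In the infusion pair, reads above the lowest transcript gave -0.77, a change of sign. Both values are ratios of remainders left after subtracting another transcript, not fold changes. Without its most-read member, a setting added after seeing the data, the Pcdhb sum of the infusion pair was -0.50. In the same setting the sum was -0.23 (-0.45 to -0.01) in the En1+/- pair, an interval that excludes 0. In the punched pair it was -0.04 (-0.13 to 0.04). The fewer calls at stricter minimums follow from fewer genes being measured. For the other moved values the cause was not tested, except that library totals shift all genes of a pair in the same direction. TMM and 2 reads added moved none of these values. At 9.5 to 19 median reads per Pcdhb gene, depth limits the captured ratios.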
